A study of Mus musculus with 20 samples.

Results

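The genes Il2ra, Il2rb, Il7r, Cish and Socs1 were followed in thymic group 2 innate lymphoid cells (ILC2), lymphocytes that make type 2 cytokines without an antigen receptor. They were taken by gene symbol from both count tables, and all 5 were found among 9973 genes in the treatment experiment and among 10706 genes in the knockout experiment. All 5 passed the filter on low counts in both, where 7482 and 8812 genes passed. The treatment experiment used wild-type females, with 3 libraries in each of 4 groups and 12 in all. Mice were left untreated, irradiated sublethally (425 rad), given recombinant IL-25 (rIL-25, 0.3 µg) by injection into the thymus, or both, and treatment lasted 3 days. The knockout experiment held 8 libraries of male mice, 4 with the genotype IL25 WT and 4 with IL25 KO, and the mice of both genotypes had received the same sublethal irradiation. The mice were young and the groups age-matched, with no age in days given. No group was injected without rIL-25, so the injection and the cytokine cannot be told apart. No group of the knockout experiment was unirradiated. Nothing in the labels says that replicates came from separate animals, so p-values measure the spread between these samples only. The sorting gate was not stated.

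The receptors of IL-2 and IL-7 share a signalling scheme. Il2rb pairs with the common gamma chain to form the signalling part of the receptors for IL-2 and IL-15, Il2ra (CD25) raises the affinity for IL-2, and Il7r (CD127) forms the IL-7 receptor with the common gamma chain and the TSLP receptor with another chain. When bound, the receptors that hold the common gamma chain activate the kinases JAK1 and JAK3, which phosphorylate STAT5. STAT5 dimers bind DNA at the palindrome TTC, 3 bases, GAA, and among the genes they switch on are Cish and Socs1, whose proteins feed back to restrain cytokine receptors and JAK kinases. ILC2 are known to carry CD25 and CD127 and to respond to IL-2 and IL-7.

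Library totals were 495079 to 1460702 counts in the treatment experiment and 2093288 to 4420831 in the knockout experiment. A count of 3 corresponded to 2.03 to 6.69 CPM (counts scaled to a common library size, with TMM factors from the trimmed mean of M-values) in the first and to 0.614 to 1.57 CPM in the second. The targeted gene Il25 had 3, 7, 17 and 10 counts in the 4 IL25 WT libraries and 0 in each IL25 KO library. Gata3, the defining transcription factor of ILC2, averaged 187 to 249 CPM in the 4 treatment groups, and Il17rb, a chain of the IL-25 receptor, 199 to 218 CPM. Of the other ILC2 markers, Il1rl1, Klrg1, Il13 and Arg1 were near 0 in untreated libraries. They had 3, 3, 5 and 2 counts over that group, and 45, 30, 30 and 33 over the irradiated group. The rIL-25 group held 19, 45, 65 and 38, and the doubly treated group 132, 155, 547 and 271. Areg had 1 count over untreated, 0 over irradiated, 2 over rIL-25 and 58 over doubly treated libraries. Id2 had 74, 294, 207 and 1166 counts over the same groups and was not near 0. Of 9 ILC2 markers tested, 6 were called higher and 0 lower in the averaged effect of irradiation, against 7.66% and 7.91% of all genes. The summed level of the 12 measured was 1670 to 2265 CPM in untreated and 3334 to 4731 CPM in irradiated libraries, and most of it was Thy1, which thymocytes also express (1483 and 3380 CPM on average). The 12 measured T cell and thymocyte markers summed to 3468 to 4018 CPM in untreated and 3349 to 3763 CPM in irradiated libraries. The part of a shift in the sorted cells in the levels of the members was not tested. In RNA of sorted pools, fewer cells that express a gene and less RNA per cell cannot be told apart. Libraries were counted at the 3′ ends of transcripts and levels are not compared between genes. In the mm10 build with the GENCODE vM21 annotation the members lie at chr2:11642807-11693193 (Il2ra, plus strand), chr15:78479256-78495271 (Il2rb, minus), chr15:9505788-9530176 (Il7r, minus), chr9:107296026-107302784 (Cish, plus) and chr16:10782240-10785536 (Socs1, minus).

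Il2rb was higher in CPM in every irradiated than in every unirradiated library, by a narrow margin. The 3 untreated libraries held 0 counts of Il2rb each, which allows up to 1.37 CPM over that group. After irradiation, replicates 1 to 3 held 7, 5 and 10 counts, or 11.4, 9.79 and 22.3 CPM. After rIL-25 they held 0, 0 and 7 counts, the last at 8.90 CPM. After both treatments they held 22, 13 and 68 counts, or 37.2, 18.01 and 48.7 CPM. Every irradiated library was therefore above every unirradiated one in CPM, with rIL-25 replicate 3 the single unirradiated library in which the transcript was detected. The margin lay within counting error, since irradiated replicate 2 had 5 counts at 9.79 CPM and rIL-25 replicate 3 had 7 counts at 8.90 CPM. Over the pooled counts Il2rb was at least 10.2-fold higher after irradiation and at least 27.8-fold higher after both treatments than the floor of 3 counts over the untreated group. Both rises were called by edgeR's quasi-likelihood test at an adjusted p under 0.05, with adjusted p = 0.0207 and 0.000763. Il2rb passed the filter on low counts only through libraries of the irradiated and doubly treated groups. Its calls in this experiment therefore come from a gene admitted by the groups where it was high. Compared with rIL-25 alone, both treatments gave a count ratio of 16.3 (95% interval 7.63 to 41.5, counting error only), with an edgeR adjusted p of 0.00211. The exact permutation test of irradiation within rIL-25 strata gave p = 0.005 two-sided, the smallest its 400 arrangements allow. Il2rb rose after irradiation alone in the full data but was not called when untreated replicate 1, untreated replicate 3 or irradiated replicate 3 was left out, with an edgeR adjusted p of up to 0.0886. In the authors' deposited table the adjusted p of Il2rb was 0.0385 for irradiation, 0.00291 for both treatments and 0.722 for both treatments against rIL-25.

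**Figure D1:**
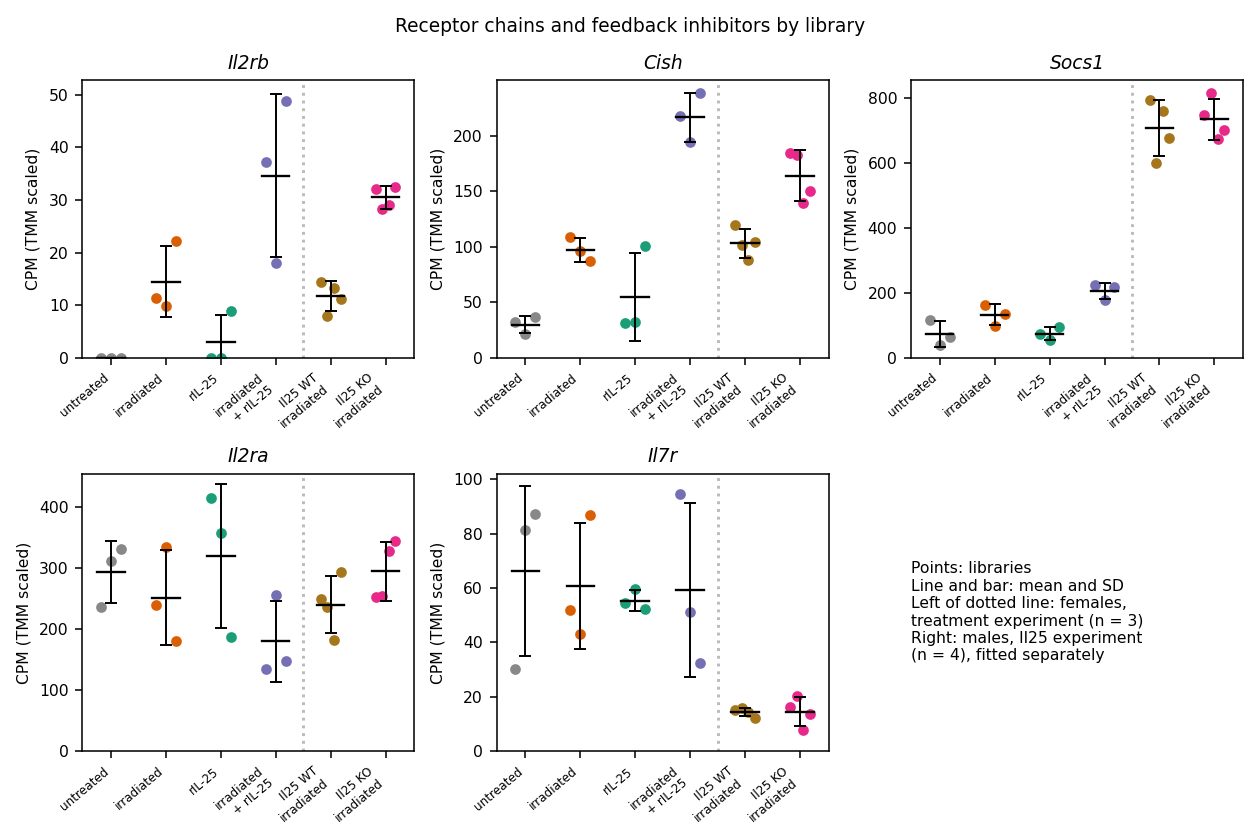
Levels of the 5 members in every library, in CPM after TMM scaling, with 1 point per library and the mean and SD of each group; the dotted line separates the treatment experiment (n = 3) from the knockout experiment (n = 4). The untreated libraries sit at 0 for Il2rb, and the 3 libraries given both treatments are the highest of the 12 for Cish.

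Il2ra, the chain that raises the affinity of the receptor for IL-2, was not called higher in any comparison. Untreated libraries had 235, 312 and 332 CPM and irradiated libraries 238, 335 and 181 CPM. The rIL-25 libraries had 414, 358 and 187 CPM, and the doubly treated ones 135, 256 and 147 CPM. All 4 groups overlapped with at least 1 other, and the mean was lowest after both treatments, at 179 ± 66.8 CPM (SD, n = 3) against 293 ± 50.7 in untreated libraries. The log2 difference was -0.22 (95% interval -0.81 to 0.37) for irradiation and -0.71 (-1.30 to -0.13) for both treatments, with edgeR adjusted p = 0.737 and 0.117, and neither was called. Averaged over rIL-25, irradiation gave -0.53 ± 0.20 (SE) with an edgeR adjusted p of 0.0736 and an exact permutation p of 0.11. That difference was called without irradiated replicate 2, without rIL-25 replicate 3 or without replicate 2 of both treatments, with edgeR adjusted p down to 0.0169. Against rIL-25 alone Il2ra fell after both treatments by 0.84 on the log2 scale (SE 0.28, edgeR adjusted p = 0.0459), although rIL-25 replicate 3 lay inside the range of the other group. That call was lost in 8 of 12 fits with a library left out, among them those without rIL-25 replicate 1, where the edgeR adjusted p was 0.212, without rIL-25 replicate 2 or without replicate 1 or 3 of both treatments, and also those without any 1 of the untreated libraries or irradiated replicate 1.

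Il7r, the alpha chain of the IL-7 receptor, was not called in any comparison. Its levels were 30.4, 81.5 and 87.1 CPM in untreated and 51.9, 43.1 and 86.9 CPM in irradiated libraries. The rIL-25 group had 54.5, 59.5 and 52.1 CPM, and the doubly treated group 94.6, 51.3 and 32.3 CPM. The groups overlapped throughout, and counts of 20 to 88 per library stood behind these levels. The averaged effect of irradiation was a log2 difference of -0.07, with a 95% interval of -0.61 to 0.47 and an edgeR adjusted p of 0.886. The interval for irradiation alone was wider, from -0.94 to 0.62.

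Cish, an SH2-domain protein named for its induction by cytokines, has the palindrome at its RefSeq start site. The RefSeq promoter table (GRCm38.p6, the assembly behind mm10) holds 300 bases around the start of 4 of the 5 members: Cish, Il2ra, Il7r and Socs1. The promoters of both feedback inhibitors are printed 5′ to 3′ on the gene's strand because they differ in the motif TTCNNNGAA, whose matches are in capitals. The Cish window is chr9:107296409-107296708 on the plus strand and the Socs1 window chr16:10785487-10785786 on the minus strand.
Cish: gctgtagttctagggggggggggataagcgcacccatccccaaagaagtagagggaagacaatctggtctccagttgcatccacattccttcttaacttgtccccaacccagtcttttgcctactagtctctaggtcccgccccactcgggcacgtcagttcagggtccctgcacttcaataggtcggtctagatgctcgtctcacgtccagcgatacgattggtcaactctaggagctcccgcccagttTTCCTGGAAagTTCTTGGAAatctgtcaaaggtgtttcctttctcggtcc
Socs1: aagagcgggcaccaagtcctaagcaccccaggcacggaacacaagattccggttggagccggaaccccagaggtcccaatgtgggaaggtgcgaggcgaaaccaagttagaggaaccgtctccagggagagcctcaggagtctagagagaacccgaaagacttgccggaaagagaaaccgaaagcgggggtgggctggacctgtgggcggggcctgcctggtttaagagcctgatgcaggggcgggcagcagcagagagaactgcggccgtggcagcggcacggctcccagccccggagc
The Cish window held 2 matches, TTCCTGGAA and TTCTTGGAA, whose first bases lay at positions 1 and 12 counted from the RefSeq start. The GENCODE start of the Cish gene given above, chr9:107296026, lies upstream of this window. The Socs1 window held 0 matches. The Il7r window held 1 match, TTCAGGGAA, with its first base at position -142, and the Il2ra window held 0. The motif is its own reverse complement, so a match counts for both strands. Of 32851 promoters of this length in the table, 8.30% held at least 1 match and 0.457% held 2 or more. The longer palindrome TTCNNNNGAA was found in 0 of the 4 windows and in 6.95% of all promoters. A match describes letters in a window, not binding.

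The level of Cish rose with irradiation and was highest after both treatments. Untreated libraries had 31.9, 21.1 and 36.3 CPM, and irradiated libraries 109, 95.9 and 86.9 CPM. The rIL-25 libraries had 31.3, 31.8 and 100.4 CPM, and the doubly treated ones 218, 194 and 238 CPM. Untreated, irradiated and doubly treated libraries formed separate ranges, and rIL-25 replicate 3 lay within the irradiated range while the other 2 rIL-25 libraries lay within the untreated one. Cish rose 3.25-fold after irradiation (log2 1.70 ± 0.36, SE; edgeR adjusted p = 0.00902) and 7.23-fold after both treatments (2.85 ± 0.34; adjusted p = 2.26e-05). Averaged over rIL-25, irradiation raised it 3.65-fold (edgeR adjusted p = 1.71e-05, exact permutation p = 0.005). These 3 calls held in all 12 fits with a library left out. In the authors' deposited table its adjusted p was 0.0011 for irradiation and 1.13e-11 for both treatments.

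Cish was also the single member called between both treatments and irradiation alone. The rise was 2.22-fold (log2 1.15 ± 0.31, SE; edgeR adjusted p = 0.0459), and the groups did not overlap. The call was lost in 7 of 12 fits with a library left out: untreated replicate 1 or 3, any of the 3 irradiated replicates, or replicate 1 or 3 of both treatments, with an edgeR adjusted p of up to 0.19. The log2 difference itself stayed between 1.08 and 1.26 in those 12 fits, and the authors' deposited table gave an adjusted p of 0.0352. Il2rb in the same comparison had a log2 difference of 1.32 ± 0.62 (SE, edgeR adjusted p = 0.287) and Socs1 one of 0.64 ± 0.28 (edgeR adjusted p = 0.245), and neither was called.

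Socs1, which blocks JAK kinases and marks them for degradation, followed Cish with smaller differences. Untreated libraries had 117, 39.3 and 65.3 CPM and irradiated libraries 162, 97.9 and 136 CPM. The rIL-25 libraries had 72.2, 55.4 and 94.1 CPM, and the doubly treated ones 223, 177 and 218 CPM. The doubly treated libraries were above the other 9, whereas irradiated and untreated libraries overlapped through untreated replicate 1. Socs1 rose 2.81-fold after both treatments (log2 1.49 ± 0.29, SE; edgeR adjusted p = 0.00232) and 2.83-fold against rIL-25 alone (1.5 ± 0.28; edgeR adjusted p = 0.00141). After irradiation alone the log2 difference of 0.85 ± 0.30 (SE) was not called, at an edgeR adjusted p of 0.113, and it was called without untreated replicate 1 (log2 1.31, adjusted p = 0.0275). Averaged over rIL-25 irradiation raised Socs1 2.26-fold (edgeR adjusted p = 0.000499, exact permutation p = 0.01). The authors' deposited table gave an adjusted p of 0.000204 for both treatments against untreated and 0.108 against rIL-25.

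Set against all genes, the members' counts of calls were as follows. After irradiation 2 of 5 members rose, and 2.22% of all genes tested rose. After both treatments 3 of 5 rose against 4.22% of all genes. Between both treatments and irradiation 1 of 5 rose against 0.642%. Between both treatments and rIL-25, Il2rb, Cish (4.09-fold, edgeR adjusted p = 0.000264) and Socs1 rose against a background of 6.51%, and Il2ra fell against 8.75%. In that comparison the authors' deposited table listed 51 genes with an adjusted p under 0.05, and of the members Cish alone was among them (adjusted p = 0.025). For the averaged effect of irradiation 3 of 5 rose against 7.66%. These comparisons share their libraries and are not independent of each other. The members were chosen with earlier results of these data known, and Il2rb passed the filter only through irradiated and doubly treated libraries. Their counts of calls therefore describe the members and are no test of them as a set.

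rIL-25 alone changed no member by the test. Of 7482 genes, 0 (0%) were called between rIL-25 and untreated libraries by edgeR, with 336 at an unadjusted p under 0.05. The authors' deposited table listed 3 genes with an adjusted p under 0.05 there and DESeq2 run on the same counts called 0. Cish had a log2 difference of 0.82 ± 0.36 (SE; 95% interval 0.06 to 1.58; edgeR adjusted p = 0.999), which rested on replicate 3 and was 0.08 without it. The same library held all 7 counts of Il2rb in its group, the lowest Il2ra of its group, and a summed level of 1003 CPM for 7 measured myeloid and dendritic cell markers, against 72.3 and 91.3 CPM in the other 2 rIL-25 libraries. That library also held the highest level of its group for the ILC2 markers Il1rl1 (24.2 CPM), Klrg1 (48.3), Arg1 (47.0) and Il13 (63.6). The lowest levels in that group were 0, 0, 0 and 1.36 CPM. Gata3 was at its lowest of the group there, at 164 CPM. The part of myeloid cells or of a shift in ILC2 in its member levels was not tested. Averaged over irradiation, rIL-25 gave Cish a log2 difference of 0.99 ± 0.24 (SE, edgeR adjusted p = 0.328), the eighth smallest p of all genes, and 0 genes (0%) were called, with 496 at an unadjusted p under 0.05. DESeq2 called 1 gene in that comparison.

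The effect of irradiation did not differ by rIL-25 for any member by the test. The interaction was called for 0 of 5 members and for 2.07% of all genes in either direction. For Cish it was 0.33 on the log2 scale (95% interval -0.67 to 1.33) and for Socs1 0.65 (-0.20 to 1.5), intervals that hold 0 and also a further rise of the size of the averaged effect on Socs1. For Il2ra it was -0.62 (-1.44 to 0.21).

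Over the 12 treatment libraries Il2rb, Cish and Socs1 were high together, and Il2ra was not high with them. The 5 libraries with 0 counts of Il2rb were the 5 with the lowest Cish, between 21.1 and 36.3 CPM, and the other 7 had at least 86.9 CPM of Cish. On the log2 scale the deviations from the group means, which leave out the group differences, had a Pearson correlation of 0.77 for Il2rb with Cish, 0.56 for Cish with Socs1 and 0.41 for Il2rb with Socs1 (n = 12 libraries). For Il2ra with Il2rb it was -0.89. In the irradiated, rIL-25 and doubly treated groups alike, the library with the highest Il2ra was at the lowest Il2rb of its group. The 0.77 for Il2rb with Cish rested mainly on the rIL-25 group, where replicate 3 had 8.90 CPM of Il2rb and 100.4 of Cish. The other libraries of that group had 0 CPM of Il2rb and 31.3 and 31.8 CPM of Cish. Untreated libraries, all at 0 counts of Il2rb, added nothing. Among irradiated libraries replicate 3 had the highest Il2rb, 22.3 CPM, and the lowest Cish, 86.9 CPM. Among doubly treated ones replicate 3 was highest for both. Over the 8 knockout libraries the same correlations were 0.10 for Il2rb with Cish, 0.46 for Cish with Socs1, 0.74 for Il2rb with Socs1 and -0.11 for Il2ra with Il2rb. These points share 1 scaling factor per library, so they are given as a description, and the deviations of Il7r in the treatment experiment had correlations of -0.41 to 0.05 with those of the other members.

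**Figure D2:**
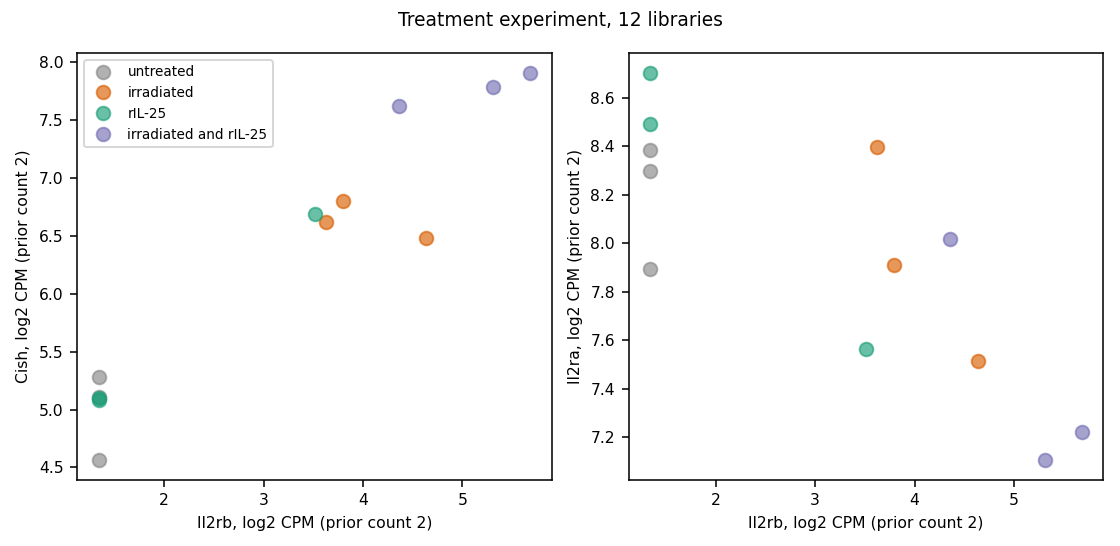
Log2 CPM (prior count 2) of Cish (left) and of Il2ra (right) against log2 CPM of Il2rb, with 1 point for each of the 12 treatment libraries, coloured by group. The 5 libraries with 0 counts of Il2rb share the lowest horizontal position and the lowest Cish levels, where an untreated library lies under those of rIL-25.

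Ratios of counts within a library need no scaling between libraries. Per 100 counts of Socs1, Cish had 27.3, 53.6 and 55.6 counts in untreated, 67.0, 98.0 and 63.9 in irradiated, 43.4, 57.3 and 106.8 in rIL-25 and 97.7, 109.4 and 109.2 in doubly treated libraries. Every irradiated or doubly treated library was thus above every untreated one. Per 100 counts of Il2ra, Il2rb had 0 in untreated libraries, 4.76, 2.92 and 12.3 in irradiated ones, 0, 0 and 4.76 in those given rIL-25 and 27.5, 7.03 and 33.2 in those given both. All doubly treated libraries except replicate 2 were above every other library of the experiment.

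**Figure D3:**
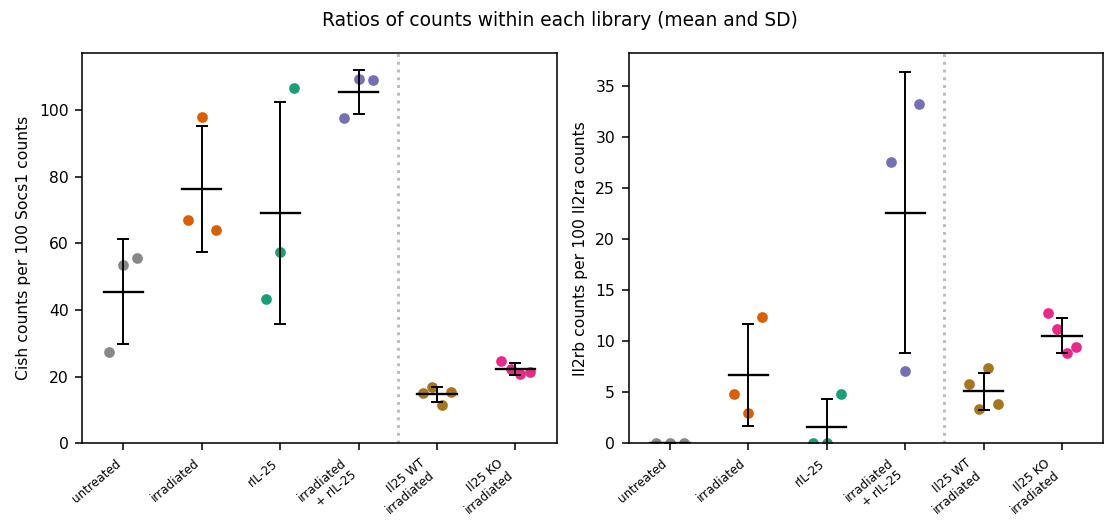
Counts of Cish per 100 counts of Socs1 and counts of Il2rb per 100 counts of Il2ra within each library, with 1 point per library and the mean and SD of each group along the horizontal axis. In the knockout experiment the 4 IL25 KO libraries lie above the 4 IL25 WT libraries for both ratios.

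In irradiated mice, loss of Il25 went with higher Il2rb and Cish, while Socs1, Il2ra and Il7r did not pass the test. IL25 WT libraries 1 to 4 held 56, 39, 49 and 36 counts of Il2rb, or 14.3, 7.98, 13.3 and 11.2 CPM. IL25 KO libraries held 133, 85, 64 and 62 counts, or 32.1, 28.3, 29.0 and 32.5 CPM. The groups did not overlap, and the IL25 KO libraries lay close together. Il2rb was 2.62-fold higher in IL25 KO (log2 1.39 ± 0.18, SE; edgeR adjusted p = 0.000404). In the authors' deposited table its adjusted p was 1.47e-07.

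Cish had 119, 101.3, 87.7 and 104 CPM in IL25 WT and 185, 182, 139 and 150.0 CPM in IL25 KO libraries. These groups did not overlap either. Cish was 1.59-fold higher in IL25 KO (log2 0.67 ± 0.13, SE; edgeR adjusted p = 0.0101). Both calls held in all 8 fits with a library left out, with an edgeR adjusted p of up to 0.0406 for Cish. The exact permutation test gave p = 0.0286 for both genes, the smallest that its 70 arrangements allow. Thus 2 of 5 members were called, both higher, where 1.57% of all genes tested were called higher. As the members were chosen with earlier results of these data known, this count is a description only.

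Socs1 had 794, 600.4, 760.3 and 677 CPM in IL25 WT and 749, 816, 674 and 701 CPM in IL25 KO libraries. The ranges overlapped almost fully, and the log2 difference was 0.06 (95% interval -0.21 to 0.32; edgeR adjusted p = 0.909), an interval that leaves out the log2 rise of 0.67 seen for Cish. Cish per 100 counts of Socs1 was 15.0, 16.9, 11.5 and 15.4 in IL25 WT and 24.7, 22.3, 20.7 and 21.4 in IL25 KO libraries, with no overlap. Il2ra had 249, 236, 182 and 293 CPM in IL25 WT and 252, 254, 328 and 344 CPM in IL25 KO libraries. These overlapped, with a log2 difference of 0.29 (95% interval -0.03 to 0.61; edgeR adjusted p = 0.47). Il2rb per 100 counts of Il2ra was 5.75, 3.39, 7.32 and 3.83 in IL25 WT and 12.7, 11.1, 8.85 and 9.45 in IL25 KO libraries, again without overlap. Il7r averaged 14.4 ± 1.61 CPM in IL25 WT and 14.5 ± 5.27 CPM in IL25 KO libraries (SD, n = 4), a log2 difference of 0.03 (95% interval -0.45 to 0.51; edgeR adjusted p = 0.975).

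Both cohorts held irradiated mice with a working Il25 gene, and their levels stand side by side without a test, since sex and table differ between them and the kind of count is not known to be the same. Il2rb averaged 14.5 ± 6.81 CPM in irradiated females and 11.7 ± 2.80 CPM in irradiated IL25 WT males. Cish averaged 97.2 ± 10.9 and 103 ± 13.0 CPM, and Il2ra 251 ± 77.9 and 240.0 ± 46.0 CPM (SD, n = 3 and 4). Socs1 stood at 132 ± 32.3 CPM in the females and 708 ± 86.8 CPM in the males. Il7r stood at 60.6 ± 23.2 and 14.4 ± 1.61 CPM. The causes of the distances for Socs1 and Il7r cannot be told apart in this design.

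Among the other receptors of the family, Il2rg, which encodes the common gamma chain used by both receptors, rose with irradiation. It averaged 290.0 ± 32.9 CPM in untreated, 434 ± 24.7 in irradiated, 299 ± 15.1 in rIL-25 and 435 ± 84.0 CPM in doubly treated libraries (SD, n = 3). The averaged effect of irradiation was 0.57 ± 0.13 on the log2 scale (SE, edgeR adjusted p = 0.00445). Il2rg was the single one of 9 tested receptor genes that was called. As 7.66% of all genes were called higher there, 1 of 9 lies near the share of all genes. Between genotypes Il2rg did not pass the test (log2 0.04, edgeR adjusted p = 0.92). Of 13 receptor genes tested there Il18r1, a chain of the IL-18 receptor, was called (2.5 ± 0.38, SE, edgeR adjusted p = 0.00146). Of all genes 1.57% were called higher there. Of the ligands, Il2 and Il7 were not measured in either experiment, and Tslp, with 5 counts over the untreated, 10 over the rIL-25 and 0 over the irradiated and the doubly treated libraries, did not pass the filter in the treatment experiment and was not measured in the other. Csf2, the gene of GM-CSF, was called higher in IL25 KO (1.34 ± 0.29, SE, edgeR adjusted p = 0.0205), a call lost in 6 of 8 fits with a library left out, those without IL25 WT replicate 1, 2 or 3 or IL25 KO replicate 2, 3 or 4.

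The kinases and STAT factors themselves were not called higher in any comparison. Of 10 JAK and STAT genes tested, 0 were called higher and 3 lower in the averaged effect of irradiation, where 7.91% of all genes were called lower. Jak1 fell by 0.59 on the log2 scale (SE 0.15, edgeR adjusted p = 0.0101), Stat4 by 0.64 (adjusted p = 0.0156) and Stat3 by 0.52 (adjusted p = 0.0236). The calls of Stat3 and Stat4 were lost without untreated replicate 3 or irradiated replicate 1, and that of Stat3 also without replicate 2 of both treatments. Stat5a (-0.18, edgeR adjusted p = 0.4), Stat5b (-0.31, 0.222) and Jak3 (0.16, 0.715) were not called. Between genotypes 0 of 11 passed the test.

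Of 15 other negative regulators of JAK-STAT signalling tested, 2 were called higher and 0 lower in the averaged effect of irradiation, against 7.66% and 7.91% of all genes. Dusp4, a MAP kinase phosphatase, had a log2 difference of 3.15 ± 0.62 (SE, edgeR adjusted p = 0.00147), with 6 counts over the untreated and 3 over the rIL-25 libraries behind it. Socs2, a relative of Cish and Socs1 that restrains growth hormone signalling, had 0.64 ± 0.15 (SE, edgeR adjusted p = 0.00687). Socs3 had 0.10 ± 0.30 (SE, edgeR adjusted p = 0.863) and was not called. Between genotypes 0 of 17 were called, with Socs2 at -0.09 and Socs3 at -0.16 on the log2 scale. In the adaptor and PI3K arm 1 of 8 genes was called higher and 1 lower with irradiation, against the same background: Irs2, a docking protein (1.01, edgeR adjusted p = 0.0232), and Pik3cd, a PI3K subunit (-0.61, 0.0245). The call of Irs2 was lost without untreated replicate 1 or 2, irradiated replicate 1, rIL-25 replicate 2 or replicate 1 of both treatments, and that of Pik3cd without untreated replicate 1 or 3, irradiated replicate 2, rIL-25 replicate 3 or replicate 3 of both treatments.

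Among the pathway lists, genes known as STAT5 targets in T cells had the most calls. The ILC2 markers moved with them, as given above, and share Id2 and Icos with the list. All lists were chosen with earlier results of these data known. Counts of calls here and between genotypes therefore describe the listed genes and cannot test STAT5 activity. In the averaged effect of irradiation 6 of 16 tested were called higher, against 7.66% of all genes, and 0 lower, and the list's median log2 difference was 0.51 against -0.01 over all genes. Ctla4, an inhibitory receptor, had 3.01 ± 0.26 (SE, edgeR adjusted p = 1.51e-07) and Lta, a TNF family cytokine, 2.74 ± 0.34 (adjusted p = 1.13e-05). Id2, a transcriptional inhibitor that innate lymphoid cells need, had 2.54 ± 0.30 (SE, edgeR adjusted p = 7.24e-06), and Tnfrsf18, the receptor GITR, 1.59 ± 0.23 (adjusted p = 5.67e-05). Bcl2l1, the survival gene of BCL-XL, was also called (1.05 ± 0.21, SE, edgeR adjusted p = 0.00187). Pim2, a survival kinase, was the sixth, and its call was lost in 6 of 12 fits with a library left out, those without untreated replicate 2 or 3, irradiated replicate 1 or 3, rIL-25 replicate 2 or replicate 3 of both treatments. After both treatments 7 of 16 were called higher than in untreated libraries and 0 lower, where 4.22% of all genes were called higher. Without replicate 3 of both treatments 4 of 15 were called. Among the 7, Myc (0.87, edgeR adjusted p = 0.0146) was lost without untreated replicate 2 or replicate 1 or 3 of both treatments, and Icos (2.91, 0.0348) without any 1 of the untreated libraries or replicate 2 or 3 of both treatments. In the averaged effect of irradiation Bcl2, Mcl1, Ccnd2 and Ccnd3 were not called, with log2 differences of -0.29, -0.21, 0.01 and -0.06. Pim1, also on the list, had a log2 difference of -0.57 after irradiation alone (edgeR adjusted p = 0.349). After both treatments it was -0.53 against untreated libraries (edgeR adjusted p = 0.301), and neither was called.

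Between genotypes 6 of 18 tested STAT5 targets were called higher in IL25 KO and 0 lower, against 1.57% of all genes called higher, with a median log2 difference of 0.40 against -0.00 over all genes. The ILC2 markers moved with them, with 7 of 11 tested called higher and 0 lower, and Id2 and Icos stand on both lists. The T cell and thymocyte sum was 3124 to 3926 CPM in IL25 WT and 2564 to 3012 CPM in IL25 KO libraries. Icos, a costimulatory receptor, had 2.64 ± 0.25 (SE, edgeR adjusted p = 4.2e-05), Tnfrsf9, the receptor 4-1BB, 1.82 ± 0.23 (adjusted p = 0.000316), Tnfrsf18 0.87 ± 0.11 (adjusted p = 0.000325) and Id2 1.09 ± 0.15 (adjusted p = 0.000525). Gzmb, a cytotoxic granule protease, averaged 39.6 ± 12.7 CPM in IL25 WT and 110.4 ± 29.3 CPM in IL25 KO libraries (SD, n = 4; edgeR adjusted p = 0.00106). Lta was the sixth (1.0, edgeR adjusted p = 0.0214), and its call was lost without IL25 WT replicate 2 or 3 or IL25 KO replicate 1 or 2. Ctla4, called with irradiation, averaged 440.0 ± 46.7 CPM in IL25 WT and 401 ± 83.5 CPM in IL25 KO libraries.

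**Figure D4:**
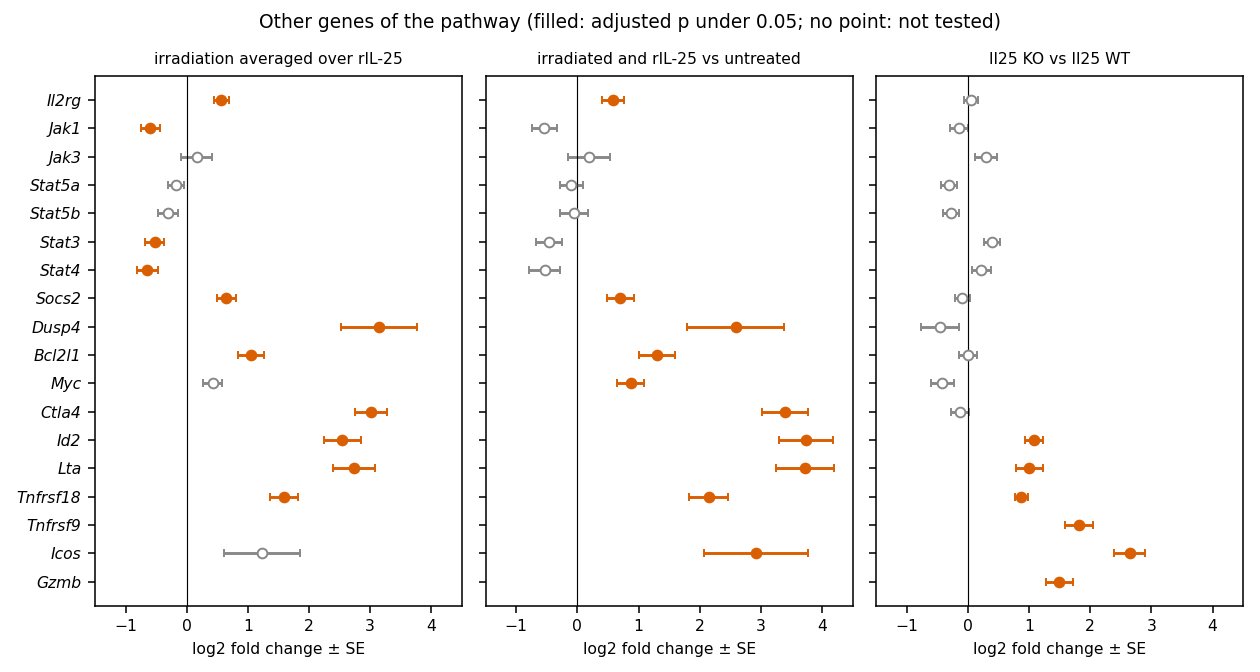
Log2 fold changes with SE of 18 other genes of the pathway for the averaged effect of irradiation, both treatments against untreated and IL25 KO against IL25 WT, filled at an edgeR adjusted p under 0.05 and left out where not tested. Ctla4, Id2, Lta and Tnfrsf18 lie to the right of 0 and are filled in both treatment panels, and Id2, Lta, Tnfrsf18, Tnfrsf9, Icos and Gzmb in the knockout panel.

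Markers of other cell types moved with some of these groups. Of 8 regulatory T cell markers 5 were measured, and their summed level was 54.7 to 72.6 CPM in untreated, 167 to 209 in irradiated, 58.1 to 68.7 in rIL-25 and 168 to 225 CPM in doubly treated libraries. Within it Izumo1r averaged 7.86 CPM in untreated and 85.9 CPM in irradiated libraries, Ctla4 7.49 and 50.6 CPM, and Ikzf2 32.8 and 17.96 CPM. Foxp3, the defining marker, was not measured. Ctla4 and Tnfrsf9 stand on this list and among the STAT5 targets. Of 9 T cell and thymocyte markers tested, 4 were called higher and 1 lower in the averaged effect of irradiation, against 7.66% and 7.91% of all genes. Cd3d averaged 117 CPM in untreated, 676 in irradiated and 491 CPM in doubly treated libraries, whereas Dntt, the terminal transferase of thymocytes, averaged 2153, 966 and 1152 CPM and Cd4 4.71, 1.82 and 1.96 CPM. The 3 of 7 mast cell and basophil markers measured summed to 311 to 465 CPM in untreated, 49.0 to 105 in irradiated, 334 to 492 in rIL-25 and 35.5 to 90.0 CPM in doubly treated libraries. Both that were tested were called lower in the averaged effect of irradiation, against the same 7.91% of all genes. Of 4 early progenitor markers tested 1 was called higher and 2 lower, against the same shares of all genes. Kit, which stands on both the mast cell and the progenitor list, averaged 83.2 CPM in untreated and 26.6 CPM in irradiated libraries. Of 10 markers of NK cells and ILC1, 4 were measured in the knockout experiment, and their sum was 31.9 to 64.4 CPM in IL25 WT and 92.3 to 144 CPM in IL25 KO libraries, with Gzmb its largest part. The 5 measured myeloid and dendritic cell markers summed to 49.7 to 76.5 CPM in IL25 WT and 93.4 to 121 CPM in IL25 KO libraries. The rise of this sum lay in H2-Aa (5.73 and 19.3 CPM on average), H2-Ab1 (30.6 and 51.2) and Cd74 (6.36 and 14.9). Lyz2 (10.4 and 10.6 CPM) and Cd68 (10.7 and 11.2) were alike in both genotypes. The part of such cells in the levels of Il2rb and Cish was not tested.

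Among 7224 other genes, those with the pattern most like each member were taken by Pearson's correlation of log2 CPM over the 12 treatment libraries. For Il2rb they were Asb2, Tnfrsf18 and Phlda1, with r of 0.99, 0.99 and 0.97. For Cish they were Traf1, Arg1 and Il2rb, with r of 0.98, 0.96 and 0.96. For Socs1 they were Pop1, Dctn2 and Psmb6, with r of 0.93, 0.93 and 0.93. For Il2ra they were Arhgap15, Casp2 and Gnai3, with r of 0.92, 0.91 and 0.91, and for Il7r Pbdc1, Ncl and Cpne3, with r of 0.91, 0.87 and 0.84. All the libraries share the group differences described above, so a high value describes likeness over these 12 libraries only.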

How the data were processed

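Sorted thymic ILC2 were profiled by MARS-seq, which tags and sequences the 3′ ends of transcripts in bulk. The authors deposited raw counts per gene and library in 1 table per experiment. The deposited log2 fold changes and adjusted p-values are the authors' own, from DESeq2 per the submitters' processing notes, which also name bcl2fastq, cutadapt, STAR 2.5.2b, HTSeq and the build mm10. The knockout counts are of molecular identifiers by the name of their table; whether the treatment counts are of reads or identifiers was not given in the sources used here. Strand settings and the annotation release were not given in the sources used here. Another 40 columns of normalized values per sample were not used.

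The members and gene lists were chosen with earlier results of these data known. Genes were filtered with edgeR's filterByExpr (minimum count 10, by group), scaled by TMM and tested with edgeR 4.0.16 quasi-likelihood F-tests in R 4.3.3, in 1 fit per experiment. The p-values of a comparison were adjusted over all its genes (Benjamini-Hochberg), and a gene was called under 0.05. The SE is the log2 difference over the root of F, and intervals are 95%. Single members were also tested by two-sided exact permutation, within rIL-25 strata for irradiation. Floors (3 counts) and intervals of count ratios cover counting error only. Named pathway genes were up to 4 per list with the smallest p in the averaged irradiation, both against untreated, and knockout comparisons. Il2rg, Jak1, Jak3, Stat5a and Stat5b were always named. Bcl2l1, Pim1, Pim2, Socs3, Bcl2, Mcl1, Ccnd2 and Ccnd3 were added after their values were seen. So were Gzmb, Lta, Ctla4 and Socs2 in the knockout comparison. Alternatives were RLE size factors, no filter, a minimum count of 30, the replicate block, only the 2 groups compared, DESeq2 1.42.0, limma 3.58.1 voom with quality weights, and each library left out; leaving out libraries in the permutation tests was added after seeing the data. The count test was checked on simulated data.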

Additional observations from a re-analysis of the deposited data

How the results depend on the processing

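Outside the leave-one-out fits, 267 recomputed member values kept their direction and side of the threshold, 4 lost a call, 4 gained one and 9 changed sign. Against rIL-25, Il2ra after both treatments was not called with RLE factors (-0.82), without the filter (-0.82) or with only the 2 groups compared (-0.83), and Il2rb was not called by DESeq2 (3.63, adjusted p = 0.0598). Il2ra in the averaged effect of irradiation was called with the replicate block (-0.56) and by voom (-0.57), and Socs1 after irradiation with the block (0.88) and by voom (0.89). Values called nowhere changed sign: by voom, Il2rb (0.38) and Il7r (-0.23) in the interaction, Il7r after irradiation (0.045), Il7r of both against rIL-25 (-0.19; -0.025 with a minimum count of 30), and Il7r (-0.038) and Socs1 (-0.0017) between genotypes; with the block, Il7r between genotypes (-0.013) and Socs1 after rIL-25 (0.062). Deviations of same-numbered libraries correlated at -0.19 to 0.37 over 18 pairs, 4 of them over 0.1, and at -0.20 to 0.25 over 4 pairs, 1 over 0.1. The 3 pairs of irradiated with rIL-25 libraries (0.12, 0.37 and 0.20) were over 0.1, but the untreated pairs (-0.19 to 0.02) were not, so the block stands as an alternative. Counts of called genes changed by over 1.5 times by voom for the interaction (417 against 155) and irradiation (541 against 301), with only the 2 groups for both against irradiation (125 against 188), and with the block (1) or DESeq2 (1) for rIL-25 averaged (0). The cause was not tested.

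With 1 library left out, counts ranged from 86 to 370 for irradiation, 0 to 3 for rIL-25, 271 to 896 for both against untreated, 42 to 358 for both against irradiation, 460 to 1318 for both against rIL-25, 29 to 347 for the interaction and 0 to 30 for rIL-25 averaged. The lowest came without untreated replicate 3 for irradiation, replicate 3 of both treatments for each comparison of both, and untreated replicate 1 for the interaction; the highest for rIL-25 averaged came without replicate 2 of both. Log2 differences ranged from 1.08 to 1.26 for Cish of both against irradiation, and 0.53 to 1.31 for Socs1 after irradiation. The fitted 6.14 to 6.75 for Il2rb after irradiation depend on the prior count, since untreated libraries are at 0, and are no bound. Il2ra ranged from -1.15 to -0.62 for both against rIL-25, -1.04 to -0.55 for both against untreated, -0.69 to -0.42 for irradiation averaged (-0.70 to -0.42 in the permutation statistic, p from 0.04 to 0.2, exact), and -0.094 to 0.39 for rIL-25. Uncalled values crossed 0 for the Il2rb interaction (-3.43 to 1.32), Socs1 after rIL-25 (-0.34 to 0.45) and between genotypes (-0.018 to 0.11; -0.017 to 0.12 in the permutation statistic). Il7r crossed 0 in irradiation (-0.51 to 0.088), both against untreated (-0.72 to 0.11), irradiation (-0.56 to 0.27) and rIL-25 (-0.45 to 0.38), the interaction (-0.29 to 0.56), irradiation averaged (-0.31 to 0.11; -0.27 to 0.13), rIL-25 averaged (-0.41 to 0.00074) and genotypes (-0.17 to 0.22; -0.25 to 0.19). Depth limits Il2rb most, since 3 counts are 2.03 to 6.69 CPM in the treatment libraries.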
